A study of Mus musculus with 54 samples.

Results

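The genes described here are the DNA replication machinery other than the MCM helicase: 38 genes chosen by function, all of which are among the 13611 genes of the deposited matrix. The series gives polyA RNA-seq of tissues of C57B6 mice and of NIH3T3, an immortalised mouse embryonic fibroblast line grown in culture, after a single 10 Gy dose of gamma radiation. Small intestine, large intestine, spleen and thymus each have 10 libraries (1 not treated, called 0 h, and 1 at each hour from 1 to 8 h and at 24 h), and NIH3T3 has 14 (0 h, each hour from 1 to 12 h, and 24 h). Every time point is 1 library, so libraries of neighbouring hours served as replicates within windows of 1 to 2 h, 3 to 5 h and 6 to 8 h. NIH3T3 also had a window of 9 to 12 h. Contrasts of 1 to 5 h against 6 to 8 h, and in NIH3T3 against 9 to 12 h, average the windows they span. Change between 1 to 2 h and 3 to 5 h is therefore not part of the standard error (SE). The labels do not say whether libraries of 1 tissue come from separate animals or cultures, how many animals were used, or their age and sex, so p-values measure only the spread between these libraries. The 0 h library is the only unirradiated one of each system, and time after handling cannot be told apart from time after radiation. All contrasts with 0 h in a system share that library, and contrasts with 1 to 5 h share those 5. Levels are in FPKM, a fragment count scaled by transcript length and by library size, and differences are on the log2(FPKM + 1) scale, which understates the change of genes with low values. "Called" means an adjusted p (Benjamini-Hochberg, limma) under 0.05 over all genes tested in that comparison.

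A replication origin is licensed in G1 when the origin recognition complex (Orc1, Orc6), Cdc6 and Cdt1 load the MCM helicase, and it fires when Cdc45 and GINS (Gins1, Gins2, Gins3) join it. DNA polymerase alpha-primase (Prim1, Prim2, Pola1, Pola2) lays primers, polymerases delta (Pold1, Pold2) and epsilon (Pole, Pole2) extend them with the clamp Pcna and its loader (Rfc1 to Rfc5), and Fen1 and Lig1 join the lagging strand. Much of this set is transcribed in late G1 and S phase under E2F control, and it is abundant where many cells cycle, as among thymocytes, splenic precursors and crypt cells.

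Promoter sequence was examined for a feature that the choice of genes did not use. RefSeq windows of 250 bases before to 50 after a transcription start (GRCm38.p6) were held for 32 of the 38 genes. An E2F-type octamer (TTTCCCGC, TTTCGCGC, TTTGCCGC or TTTGGCGC on either strand, counted apart from CCAAT, whose end letters they may share) was present in 12 of the 32 (37.5%), against 4.37% of the 10360 genes of the matrix with such a window. CCAAT on either strand was present in 19 of the 32 (59.4%), against 42.4% of the same 10360 genes. The sites of the 5 octamer-holding genes called in the most comparisons are printed with the octamer in capitals, read 5′ to 3′ along the gene's strand, to show where the octamer sits relative to the start. A tie at the fifth place between genes called in 3 comparisons went to the gene with the lowest log2 difference in thymus.
Clspn: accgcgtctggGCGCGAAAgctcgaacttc
Pola1: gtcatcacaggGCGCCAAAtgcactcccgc
Pold1: cacggcggcgtatcttgtgGCGGGAAAagc
Cdc6: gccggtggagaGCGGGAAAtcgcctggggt
Dtl: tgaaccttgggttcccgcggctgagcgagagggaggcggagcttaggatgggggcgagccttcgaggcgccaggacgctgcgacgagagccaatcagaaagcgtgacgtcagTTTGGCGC
The Clspn site begins 22 bases into the transcript (chr4:126556990-126557019, plus strand) and the Pold1 site 40 bases into it (chr7:44548766-44548795, minus strand). In Pola1 (chrX:93632275-93632304, minus strand) and Cdc6 (chr11:98908002-98908031, plus strand) the site lies 138 bases before a RefSeq start, inside the span of a longer transcript of the same gene. The Dtl octamer ends at the base before the start (chr1:191575545-191575664, minus strand), and that window also holds CCAAT. For 6 to 8 h against 1 to 5 h in thymus the median log2 difference was -1.50 over the 12 genes with an octamer and -1.38 over the 20 without one. A match describes letters only and shows no binding.

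Before radiation the set was most abundant in NIH3T3 and thymus, with a median over the 38 genes of 26.9 FPKM and 26.4 FPKM at 0 h. The median was 13.5 FPKM in spleen, 5.81 FPKM in large intestine and 5.06 FPKM in small intestine. After the exclusion of genes averaging under 1 FPKM, all 38 could be tested in thymus, spleen and NIH3T3, 35 in small intestine (not Orc1, Pole or Timeless) and 34 in large intestine (not Cdc6, Pole, Clspn or Timeless).

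Some libraries stood apart. Read totals are not given; relative depth, estimated from the smallest steps in FPKM, differed by 1.92-fold to 2.36-fold between the deepest and the shallowest library in the other systems and by 4.14-fold in thymus, where 0 h was deepest and 8 h shallowest. Transcripts of another organ were abundant in 3 libraries: pancreas markers at a sum of 46230 FPKM in spleen at 6 h, small-intestine markers at 35490 FPKM in large intestine at 2 h, and small-intestine markers at 9743 FPKM in thymus at 24 h. Thymus otherwise carried the T cell and thymocyte markers of its label and spleen the B cell markers. A few values sit near 0 among neighbours that do not, such as Orc6 in thymus at 8 h (0.00119 FPKM) and in small intestine at 3 h (0.000192 FPKM).

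**Figure D1:**
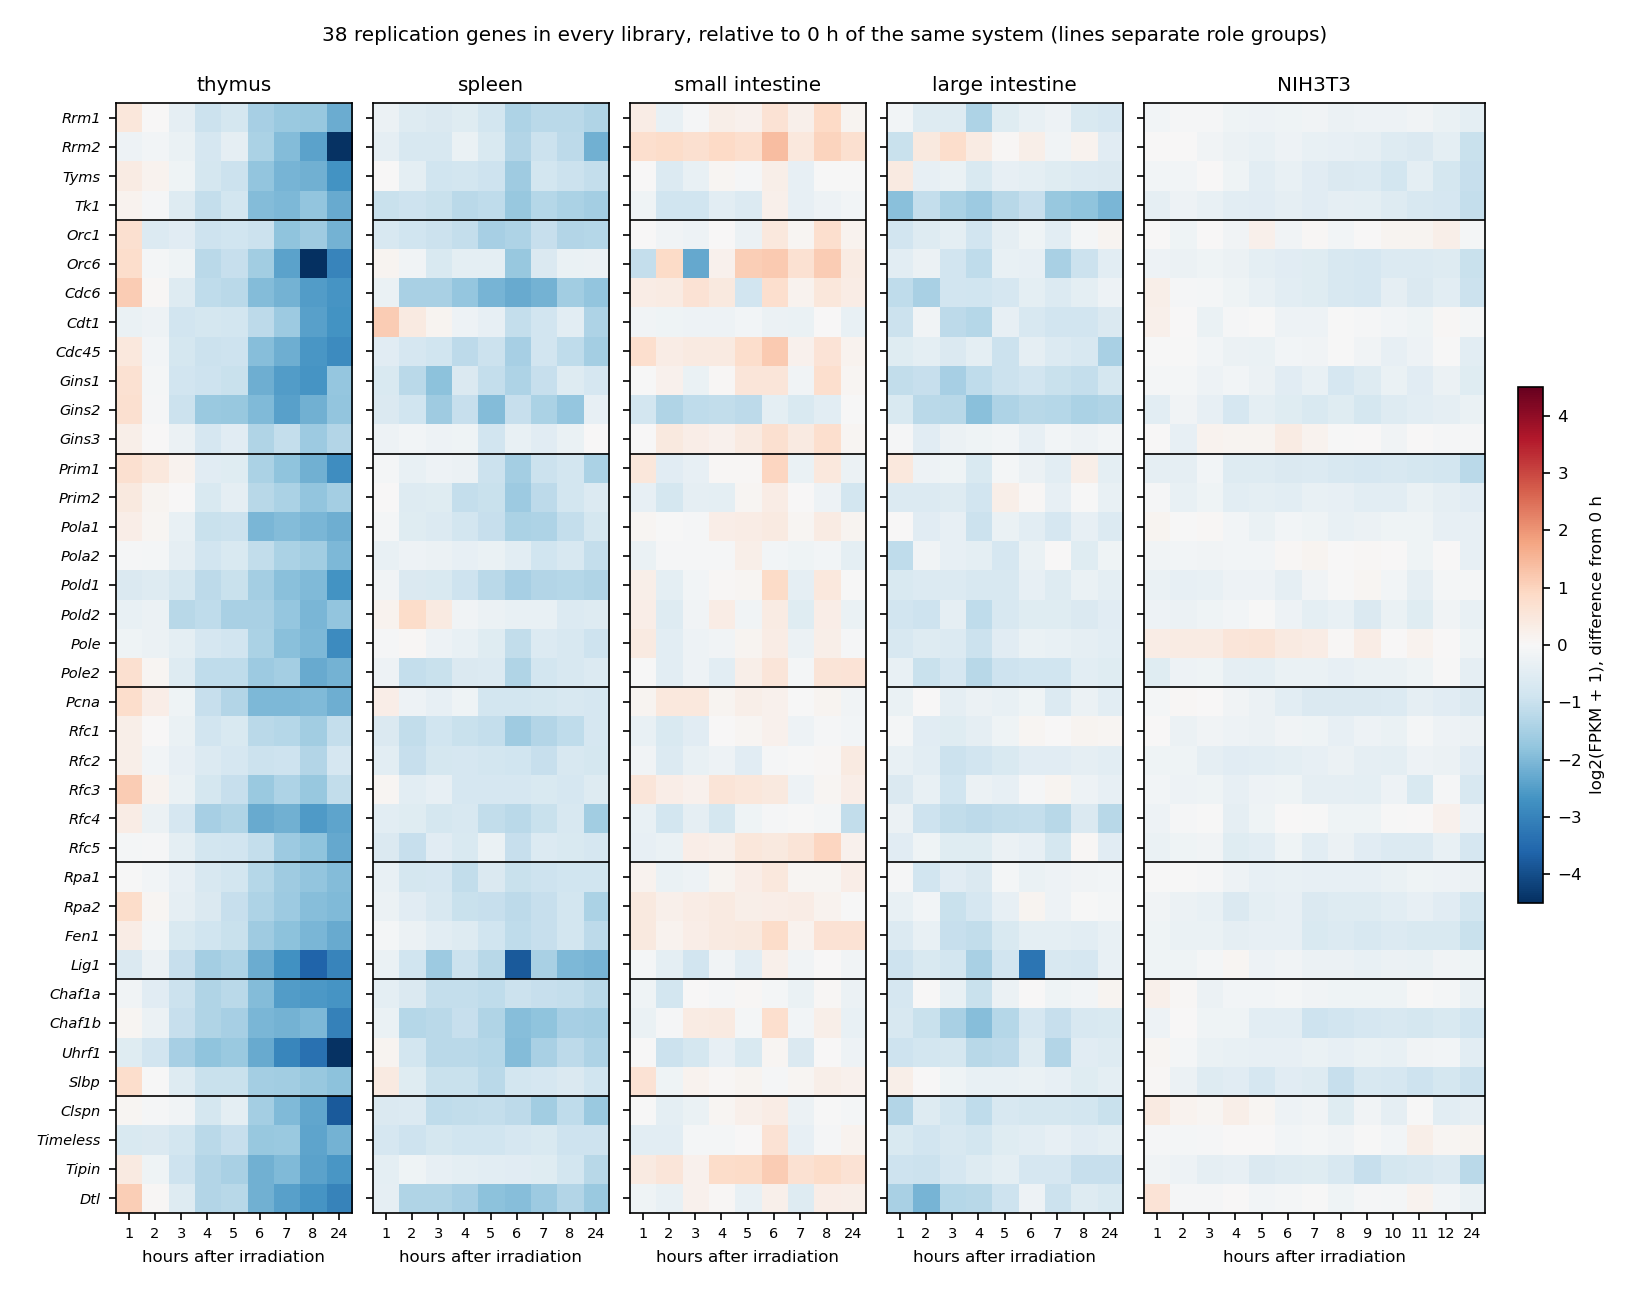
Difference of log2(FPKM + 1) from the 0 h library of the same system for each of the 38 genes (rows, in role groups) in each irradiated library (columns, hours). Thymus shows 26 of 38 genes above 0 h at 1 h and none above it from 4 h on, spleen none above it from 4 to 8 h, and large intestine at most 5 of 34 above it at any hour from 1 to 8 h. In small intestine between 11 and 28 of 35 genes are above 0 h at those hours. Of all genes tested, 43.9% to 52.9% are above 0 h at any hour from 1 to 8 h in the 4 tissues. Orc6 in thymus at 8 h (-5.05) lies past the end of the colour scale.

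In thymus all 38 genes fell between 1 to 5 h and 6 to 8 h, against 13.4% of the 12426 genes tested that were called lower there. The median difference was -1.41, against -0.002 over all genes tested. For all 38 genes every one of the 3 libraries at 6 to 8 h lay below every one of the 5 libraries at 1 to 5 h, which held for 14.3% of all genes tested. Without the 8 h library 37 were called.

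The nucleotide supply enzymes fell together. Rrm2, the regulated small subunit of ribonucleotide reductase, measured 113, 119, 108, 77.4 and 99.99 FPKM at 1 to 5 h and 48.7, 33.4 and 23.9 FPKM at 6 to 8 h, a difference of -1.57 ± 0.25 (SE, adjusted p = 4.94e-05, limma). All 3 late libraries were below the lowest early one, and the level was still going down at 8 h. Tk1, the thymidine kinase of the salvage pathway, measured 36.6, 31.2, 21.6, 15.2 and 17.995 FPKM and then 7.69, 7.29 and 8.81 FPKM, a difference of -1.45 ± 0.20 (adjusted p = 6.96e-06). Tyms, which makes thymidylate, fell by 1.73 ± 0.21 and Rrm1, the large reductase subunit, by 1.29 ± 0.20.

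Licensing and firing factors held the 2 largest differences. Orc6 showed the lowest value, -2.66 ± 0.64 (adjusted p = 0.00271), with 56.4, 29.8, 28.1, 13.5 and 15.001 FPKM at 1 to 5 h and 10.2, 5.29 and 0.00119 FPKM at 6 to 8 h. That size rests partly on the 8 h library: without it the difference was -1.63 and was not called (adjusted p = 0.0583, limma). Gins1 measured 40.9, 23.3, 13.3, 12.5 and 11.9 FPKM and then 4.68, 3.51 and 3.10 FPKM, a difference of -2.02 ± 0.26 (adjusted p = 2.88e-06). Its late values lie close together and far under the early ones. Cdc6, the loader of MCM, measured 28.8, 12.9, 8.09, 5.16 and 4.82 FPKM and then 2.53, 2.07 and 1.34 FPKM, a difference of -1.85 ± 0.30 (adjusted p = 6e-05). Cdt1, its partner, measured 19.2, 20.4, 12.8, 13.4 and 13.3 FPKM and then 10.05, 7.11 and 3.62 FPKM (-1.15 ± 0.24). Orc1 was low throughout, at 9.34, 3.19, 3.42, 2.31 and 2.42 FPKM and then 2.21, 0.798 and 1.10 FPKM (-1.02 ± 0.23, adjusted p = 0.00152). Its early and late values came nearest to touching at 4 and 6 h.

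Among the polymerases, Prim1, the catalytic primase subunit, measured 82.2, 68.1, 54.7, 33.9 and 33.5 FPKM at 1 to 5 h and 17.7, 13.3 and 10.043 FPKM at 6 to 8 h (-1.86 ± 0.29, adjusted p = 3.17e-05). The other 7 genes of the group ranged from -1.64 (Pola1) to -0.86 (Pold2), with Pold1 at -0.97 and Pola2 at -0.96. Pcna, the sliding clamp, measured 251, 175, 125, 69.1 and 56.9 FPKM and then 34.1, 34.4 and 34.98 FPKM, a difference of -1.73 ± 0.19 (adjusted p = 5.95e-07). From 6 h on its level was flat, with a mean of 34.5 ± 0.44 FPKM (SD, n = 3). The clamp loader held both the large fall of Rfc4 (-1.62 ± 0.20) and the smallest of the 38, Rfc2, at -0.75 ± 0.13.

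Lig1, which seals Okazaki fragments, measured 25.4, 33.4, 19.4, 13.5 and 14.8 FPKM and then 7.78, 5.25 and 2.42 FPKM (-1.89 ± 0.47, adjusted p = 0.0034). With a pseudocount of 0.1 in place of 1, Lig1 was the single gene of the 38 not called (-2.09, adjusted p = 0.0766, limma). The error is pooled over the tissues, and Lig1 was at 0.00163 FPKM in 1 large intestine library at 6 to 8 h. In a fit of thymus alone, with a pseudocount of 1, all 38 were called. Fen1, Rpa2 and Rpa1 differed by -1.36, -1.40 and -1.14. Slbp, which binds the stem-loop of replication-dependent histone mRNA, measured 97.4, 54.5, 37.037, 27.2 and 27.6 FPKM and then 18.7, 18.01 and 16.3 FPKM (-1.24 ± 0.19). Uhrf1, which brings the maintenance methylase to new DNA, and the CAF-1 histone chaperone subunits Chaf1a and Chaf1b differed by -1.57, -1.50 and -1.24. Dtl, the substrate receptor of the ligase that destroys Cdt1 during S phase, measured 48.035, 22.7, 14.4, 8.11 and 8.61 FPKM and then 4.16, 3.25 and 2.64 FPKM (-2.01 ± 0.27, adjusted p = 6.04e-06). Clspn, the adaptor that activates Chk1, differed by -1.69, and the fork protection pair Tipin and Timeless by -1.48 and -1.03.

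Markers of the thymus's main cells moved in the same libraries. The 6 T cell markers summed to 1474 to 1930 FPKM at 1 to 5 h and 842 to 1110 FPKM at 6 to 8 h, and 4 thymocyte markers to 728 to 913 FPKM and then 355 to 500.3 FPKM. The 4 macrophage markers summed to 83.7 to 167 FPKM and then 199.5 to 256 FPKM, and the 5 thymic epithelium markers to 1049 to 1595 FPKM and then 1623 to 1715 FPKM. Fewer cells of a type and less RNA per cell cannot be told apart in these bulk samples, and the part of cell makeup or of the shallower late libraries in the falls was not tested.

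**Figure D2:**
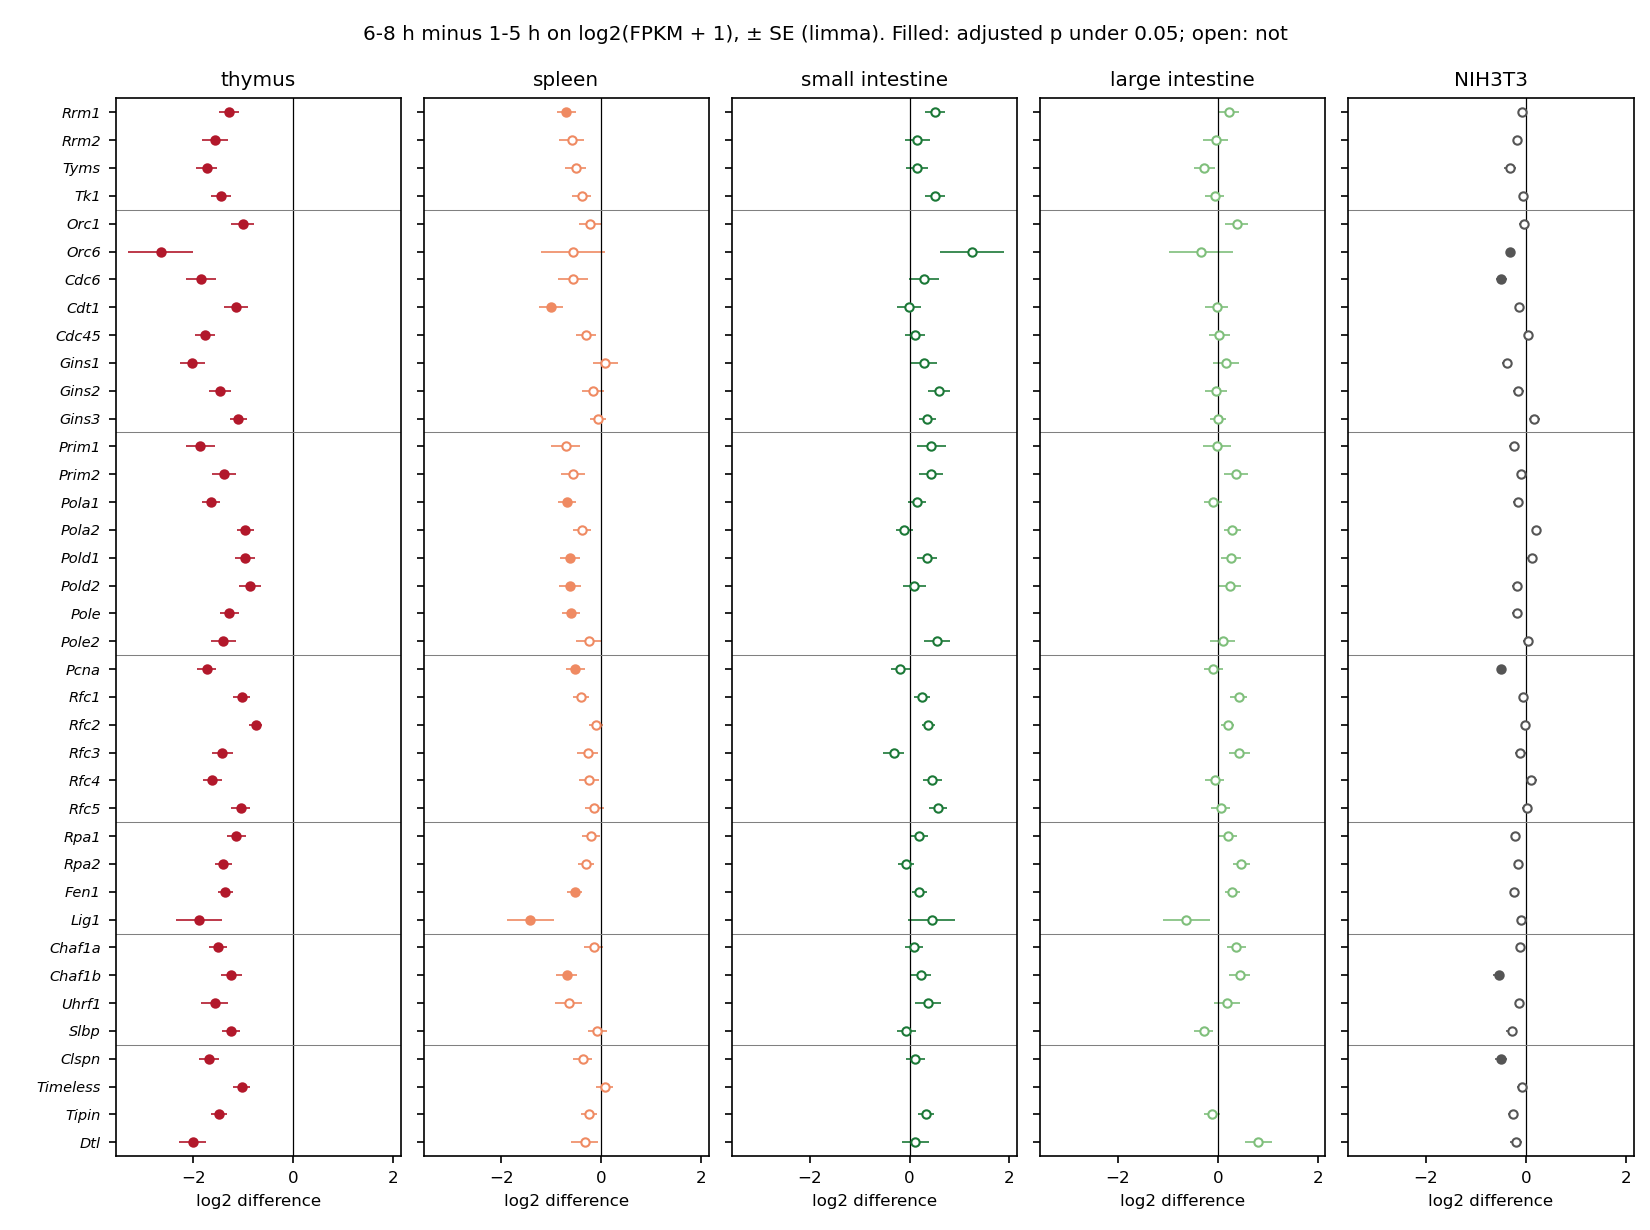
Difference of log2(FPKM + 1), 6 to 8 h minus 1 to 5 h, with its standard error (limma), for each gene tested (rows) in each system (panels); filled points were called, open points were not. All 38 points are filled in thymus, 10 of 38 in spleen, 5 of 38 in NIH3T3 and none in the intestines. Of all genes tested, 13.4% were called lower in thymus, 12.2% in spleen and 1.44% in NIH3T3. In small and large intestine 0.579% and 0.54% were called in either direction. Without the 6 h library 2 genes are called in spleen. Genes under the expression filter have no point.

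The thymus time course did not start with a fall. At 1 h 26 of the 38 genes (68.4%) were above their 0 h value, against 49.8% of all genes tested. Of the 38, 12 were higher by more than 1.5-fold, against 5.59% of all genes tested, and 3 were lower by more than 1.5-fold, against 7.11%. These are single libraries with no test. Rfc3, a clamp loader subunit, was at 30.974 FPKM at 0 h and 69.7 FPKM at 1 h. Cdc6 went from 12.5 to 28.8 FPKM, Dtl from 21.951 to 48.035 FPKM, Pcna from 143 to 251 FPKM and Slbp from 55.8 to 97.4 FPKM. The higher genes came from every role group but nucleotide supply, in which the largest difference was that of Rrm1 (77.8 to 110.0 FPKM). The 3 lower genes were Timeless (17.2 to 10.2 FPKM), Pold1 (23.5 to 14.5 FPKM) and Lig1 (40.6 to 25.4 FPKM). The polymerase genes parted at that hour, with Pold1 lower and Pole2 and Prim1 higher. At 2 h 13 genes were above 0 h, none of them by 1.5-fold, at 3 h 2 were above it, and at 4, 5, 6, 7, 8 and 24 h none was. Of all genes tested, 50.35% to 56% were above 0 h at these hours. The median over the 38 genes passed from 26.4 FPKM at 0 h to 34.1 at 1 h, 25.3 at 2 h, 19.0 at 3 h and 5.07 at 8 h.

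**Figure D3:**
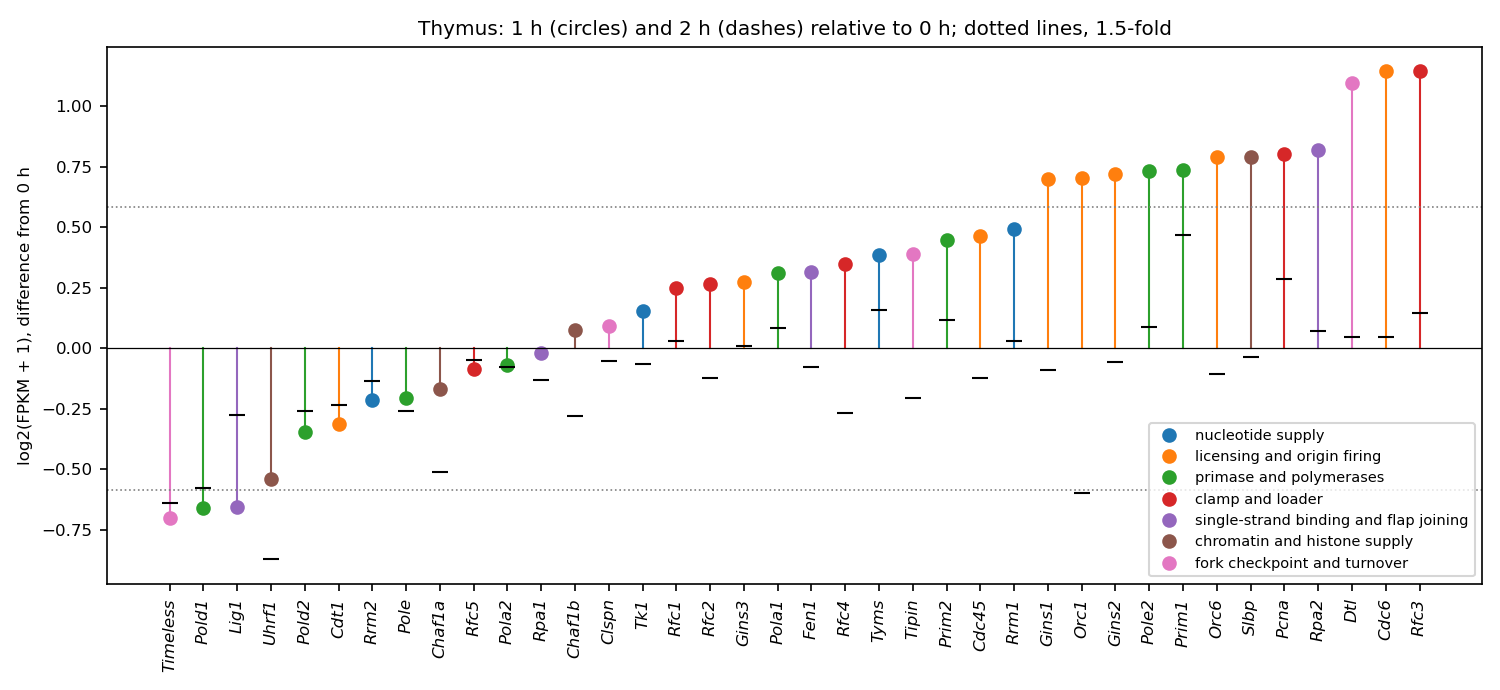
Difference of log2(FPKM + 1) from 0 h in thymus at 1 h (circles, coloured by role group) and 2 h (dashes) for the 38 genes, ordered by the 1 h value; dotted lines mark 1.5-fold. At 1 h 12 genes lie above the upper line and 3 below the lower one, and at 2 h none lies above the upper one.

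Over all hours from 1 to 8 h against 0 h the thymus differences had a median of -0.98. In this contrast 24 of 38 genes fell, against 3.9% of all genes tested. Of these the lowest were Uhrf1 (-1.87 ± 0.38, adjusted p = 0.00216, limma), Chaf1a (-1.41 ± 0.27), Rfc4 (-1.31 ± 0.29), Chaf1b (-1.29 ± 0.30) and Gins2 (-1.29 ± 0.32). All 4 chromatin and histone supply genes were among the 24 called. Tk1 (-1.02), Pcna (-0.94), Slbp (-0.83), Pola2 (-0.78), Rpa2 (-0.77) and Rfc2 (-0.60) were called too. Uhrf1 declined with no early peak, from 70.4 FPKM at 0 h through 48.1, 38.021, 24.2, 19.3 and 21.4 FPKM to 13.7, 8.28 and 6.05 FPKM. Cdc6 (-1.04 ± 0.44), Cdt1 (-1.03 ± 0.34), Rrm2 (-0.94 ± 0.37) and Orc1 (-0.83 ± 0.33) were not called. The comparison leans on the single 0 h library and on the late ones: 15 genes were called without 6 h, 12 without 7 h and 12 without 8 h, and 13 with a pseudocount of 0.1.

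In spleen the set was lower after radiation. Between 0 h and 1 to 8 h 15 of 38 genes fell, against 3.61% of all genes tested, and all 38 differences were below 0, with a median of -0.83. Cdc6 was lowest in this contrast, at 6.99 FPKM at 0 h, 5.48, 1.91, 1.90, 1.38 and 0.870 FPKM at 1 to 5 h and 0.655, 0.849 and 1.69 FPKM at 6 to 8 h (-1.63 ± 0.44, adjusted p = 0.0219). All 8 irradiated libraries were below 0 h, and most of the drop came between 1 and 2 h. Tk1 was at 24.8 FPKM at 0 h, then 11.9, 12.5, 11.8, 10.1 and 10.6 and 6.95, 9.70 and 8.68 FPKM (-1.21 ± 0.29, adjusted p = 0.00899). Its largest step came before the first sampled hour. Dtl differed by -1.42 ± 0.39, Chaf1b by -1.30 ± 0.30 and Gins2 by -1.29 ± 0.32. Orc1 (3.06 FPKM at 0 h, 1.49, 1.18, 1.09, 0.923 and 0.448 and 0.562, 0.982 and 0.622 FPKM later) was called at -1.11 ± 0.33. The smallest differences called were those of Chaf1a (-0.93), Pola1 (-0.87), Rpa2 (-0.83), Timeless (-0.83) and Rfc2 (-0.82). Rrm2 (-0.78 ± 0.37), Slbp (-0.70 ± 0.27), Pcna (-0.46 ± 0.27) and Cdt1 (-0.17 ± 0.34) were not called. Fitted on spleen alone the count was 7, and with a pseudocount of 0.1 it was 5.

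Between 1 to 5 h and 6 to 8 h 10 of 38 spleen genes fell, against 12.2% of all genes tested, with a median of -0.39. The 3 late libraries lay below all 5 early ones for 13 of 38 genes, against 10.7% of all genes tested. Cdt1 had an early peak. It was at 13.4 FPKM at 0 h, and at 30.6, 17.9, 14.7, 11.4 and 10.1 FPKM at 1 to 5 h. At 6 to 8 h it was at 5.87, 6.94 and 9.39 FPKM (-1.01 ± 0.24, adjusted p = 0.0032, limma). It was the single gene of the set more than 1.5-fold above 0 h in spleen at 1 h. Pold2 also peaked early, from 16.4 FPKM at 0 h to a highest value of 29.6 FPKM at 1 to 2 h. Lig1 was lowest, with 13.7, 8.69, 4.82, 8.14 and 6.59 FPKM and then 0.311, 5.49 and 3.38 FPKM (-1.42 ± 0.47, adjusted p = 0.0272), but without the 6 h library it was at -0.75 and not called (adjusted p = 0.268, limma). Polymerase genes made up 4 of the 10 called, Pola1 (-0.68), Pold1 (-0.63), Pold2 (-0.63) and Pole (-0.61). Pcna was at 88.8, 61.955, 55.6, 62.1 and 39.8 FPKM and then 39.972, 40.8 and 43.1 FPKM (-0.52 ± 0.19, adjusted p = 0.0426). The 5 h library lay below all 3 late ones, and the other 4 early libraries lay above them, so the groups overlapped. Rrm1, Chaf1b and Fen1 were called at -0.70, -0.70 and -0.54. Rrm2 (-0.59), Cdc6 (-0.57), Tk1 (-0.40), Orc1 (-0.22) and Slbp (-0.08) were not called. The 6 h library carried the pancreas transcripts: 2 genes were called without it, 5 without it and large intestine at 1 and 2 h, and 6 without 1 h, 2 h or 7 h. The 6 B cell markers summed to 2206 FPKM at 0 h, 574 to 1710 FPKM at 1 to 5 h and 317 to 334 FPKM at 6 to 8 h, and 9 erythroid markers to 31140, 9242 to 56180 and 14450 to 17650 FPKM; their part in the result was not tested.

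**Figure D4:**
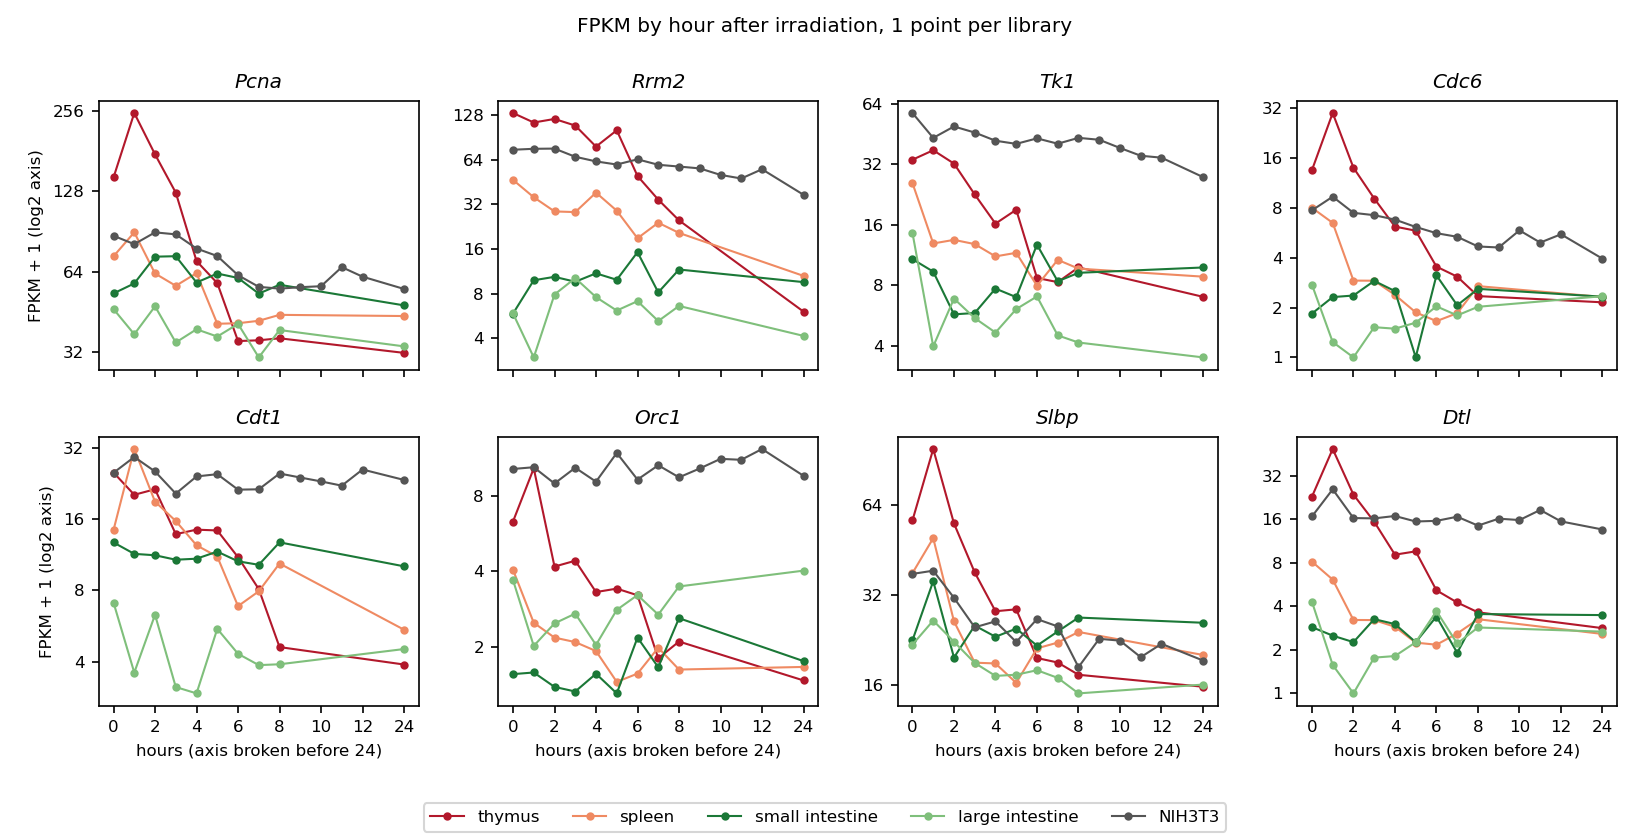
FPKM + 1 on a log2 axis against hours after radiation for 8 of the genes in the 5 systems, 1 point per library, with the axis broken before 24 h. In thymus Pcna, Cdc6, Orc1, Slbp and Dtl are highest at 1 h, and Pcna then goes from 251 FPKM at 1 h to 34.1 FPKM at 6 h, below its 39.972 FPKM in spleen at that hour.

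Few genes were called in the intestines. In small intestine 0 of 35 genes were called for 1 to 8 h against 0 h (background 0.316%) and 0 of 35 for 6 to 8 h against 1 to 5 h (0.579%). At an unadjusted p under 0.05 in the same limma fit there were 3 and 8 genes, and in the second comparison all 8 were higher at 6 to 8 h. The share of all genes tested that pass this unadjusted threshold was not counted, so these numbers have no background. Pcna was at 52.002 FPKM at 0 h, 56.8, 71.8, 72.1, 57.2 and 61.9 FPKM at 1 to 5 h and 59.6, 51.9 and 56.1 FPKM at 6 to 8 h. Rrm2 was at 4.86 FPKM at 0 h, then 8.83, 9.37, 8.61, 9.95 and 8.90 and 14.2, 7.14 and 10.6 FPKM. Every irradiated library exceeded the 0 h one for Rrm2, but the difference of 0.85 ± 0.37 was not called (adjusted p = 0.669). The values at 1 to 5 h and at 6 to 8 h overlapped. Slbp was at 21.6 FPKM, then 34.6, 18.8, 24.3, 22.2 and 23.7 and 20.7, 23.1 and 25.9 FPKM. Tk1 (-0.43 ± 0.29), Cdt1 (-0.19 ± 0.34) and Cdc6 (0.29 ± 0.44) were not called against 0 h. Orc1 was not tested and ranged from 0.302 to 1.60 FPKM. The crypt marker sum (4 genes, such as Lgr5) was 198 FPKM at 0 h, 108 to 219 FPKM at 1 to 5 h and 72.4 to 128 FPKM at 6 to 8 h in the same libraries.

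In large intestine Tk1 and Gins2 were called lower against 0 h, 2 of 34 genes against 0.27% of all genes tested, and 33 of the 34 differences were below 0, with a median of -0.57. At each hour from 1 to 8 h at most 5 of the 34 genes were above 0 h, against 46.4% to 51.7% of all genes tested. Between 10 and 24 of the 34 were more than 1.5-fold below 0 h at those hours. At an unadjusted p under 0.05 in limma there were 13 genes, all lower. The shares of all genes tested that pass the unadjusted and the 1.5-fold thresholds in this tissue were not counted. Tk1 was at 13.6 FPKM at 0 h, 2.97, 5.86, 4.49, 3.65 and 5.09 FPKM at 1 to 5 h and 6.03, 3.50 and 3.15 FPKM at 6 to 8 h (-1.48 ± 0.29, adjusted p = 0.00756). Gins2 was at 8.68 FPKM, then 4.99, 3.20, 3.08, 1.63 and 2.66 and 3.04, 2.96 and 2.65 FPKM (-1.30 ± 0.32, adjusted p = 0.0415). Cdt1 (-0.80 ± 0.34), Orc1 (-0.49 ± 0.33), Pcna (-0.29 ± 0.27), Slbp (-0.22 ± 0.27) and Rrm2 (0.12 ± 0.37) were not called, and Cdc6 was not tested. The 0 h library carried 27.7 FPKM of keratinocyte markers, against 1.19 to 4.84 FPKM in the other libraries, and its part in these differences was not tested. The count was 0 in a fit of large intestine alone, 4 without 1 h or without 2 h, and 1 without 4, 5 or 6 h. Between 1 to 5 h and 6 to 8 h 0 of 34 genes were called (background 0.54%), and 5 had an unadjusted p under 0.05 in limma, all higher at 6 to 8 h.

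The difference between organs was tested directly. For 6 to 8 h against 1 to 5 h the mean response of spleen and thymus was lower than that of the intestines for 32 of 33 genes, against 12.8% of the 9980 genes tested, with a median of -1.10. A call on this mean does not require a fall in both organs. Gins1 was among the 32, with a mean in spleen of 3.96 FPKM at 1 to 5 h and 4.155 FPKM at 6 to 8 h. Slbp was the gene not called (-0.49 ± 0.19, adjusted p = 0.0521). Dtl differed by -1.64 ± 0.27 (adjusted p = 0.000118, limma), Prim1 by -1.50 ± 0.29, Uhrf1 by -1.39 ± 0.26, Tk1 by -1.14 ± 0.20, Rrm2 by -1.14 ± 0.25, Cdt1 by -1.07 ± 0.24 and Pcna by -0.99 ± 0.19. The smallest differences called were those of Rfc3 (-0.90), Rpa1 (-0.87), Gins3 (-0.76), Pola2 (-0.76) and Rfc2 (-0.72). Orc6 (-2.08 ± 0.64) and Lig1 (-1.56 ± 0.47) lost the call with a pseudocount of 0.1 (adjusted p = 0.0538 and 0.2001). For 1 to 8 h against 0 h 1 of 33 genes was called, Rrm2 (-1.34 ± 0.37, adjusted p = 0.0473), against 0.852% of all genes tested. That call depended on single libraries: no gene was called without small intestine at 1, 4, 5 or 8 h, large intestine at 3, 6 or 8 h, spleen at 6, 7 or 8 h, or thymus at 4, 7 or 8 h. Without thymus at 1 h or 2 h 6 genes were called, without large intestine at 1 or 2 h or small intestine at 7 h 4, without thymus at 3 h 3, and without small intestine at 2 h, large intestine at 5 h or spleen at 1 or 2 h 2.

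Thymus and spleen also differed from each other. For 6 to 8 h against 1 to 5 h 22 of 38 genes had a lower response in thymus than in spleen, against 4.99% of all genes tested, with a median of -1.04; this comparison was added after the data were seen. Gins1 was lowest (-2.10 ± 0.36, adjusted p = 0.000692, limma), followed by Dtl (-1.67), Cdc45 (-1.46), Rfc4 (-1.37) and Chaf1a (-1.35). Pcna (-1.21 ± 0.27), Slbp (-1.16 ± 0.27) and Tk1 (-1.05 ± 0.28) were called, and Cdc6 (-1.28 ± 0.43), Rrm2 (-0.97 ± 0.36), Orc1 (-0.80 ± 0.32) and Cdt1 (-0.14 ± 0.34) were not. The smallest differences called were those of Pola1 (-0.96), Rpa1 (-0.93), Rfc5 (-0.91), Fen1 (-0.82) and Rfc2 (-0.65). The 4 fork checkpoint and turnover genes were all called, and 2 of 8 polymerase genes were. Without thymus at 1 h, the library with the early peak, 13 genes were called.

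In NIH3T3 the called differences were no larger than that of Chaf1b, -0.55 on the log2 scale. Against 0 h 2 of 38 genes fell, Prim1 (-0.51 ± 0.13, adjusted p = 0.0461) and Orc6 (-0.40 ± 0.11, adjusted p = 0.0495, limma), against 1.7% of all genes tested. That count was 0 without 4, 5, 7 or 8 h, 1 without 6 h and 4 without 1 or 2 h. For 6 to 8 h against 1 to 5 h 5 of 38 genes fell, against 1.44%. They were Chaf1b (-0.55 ± 0.10), Pcna (-0.50 ± 0.08), Clspn (-0.50 ± 0.12), Cdc6 (-0.49 ± 0.12) and Orc6 (-0.32 ± 0.07). The count was 0 without 7 or 8 h, 3 without 6 h, 2 without 1, 3 or 4 h, and 1 without 2 h. For 9 to 12 h against 1 to 5 h 13 of 38 genes fell, against 6.52%, with a median of -0.13. Pcna was at 86.2 FPKM at 0 h, 80.1, 88.8, 87.3, 77.1 and 72.2 FPKM at 1 to 5 h, 61.034, 55.1 and 54.2 FPKM at 6 to 8 h and 54.9, 55.4, 65.5 and 60.2 FPKM at 9 to 12 h (-0.45 ± 0.07, adjusted p = 0.00254). All later libraries were below all early ones, and the level did not keep falling. Chaf1b was at 36.6, 43.7, 36.978, 37.7 and 30.6 FPKM at 1 to 5 h and 25.2, 25.7, 24.5 and 26.1 FPKM at 9 to 12 h (-0.52 ± 0.09, adjusted p = 0.00404). Cdc6 (-0.49 ± 0.11), Tyms (-0.48 ± 0.11) and Clspn (-0.47 ± 0.11) followed, and Rrm2 (-0.38 ± 0.06), Slbp (-0.37 ± 0.11) and Tk1 (-0.23 ± 0.07) were called. Cdt1 (-0.06 ± 0.08) and Orc1 (0.15 ± 0.09) were not: Orc1 was at 9.44, 7.99, 9.39, 8.14 and 10.9 FPKM and then 9.32, 10.3, 10.2 and 11.4 FPKM, with overlapping groups.

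At 24 h a single library per system was compared with a single 0 h library, with no test. More than 2-fold lower were 37 of 38 genes in thymus (background 12.6%), 21 of 38 in spleen (6.33%), 5 of 34 in large intestine (2.18%), 1 of 35 in small intestine (1.7%) and 6 of 38 in NIH3T3 (0.934%), and none was 2-fold higher. In thymus Rrm2 was at 131 FPKM at 0 h and 5.04 FPKM at 24 h, Uhrf1 at 70.4 and 2.30 FPKM, and Clspn at 19.4 and 0.494 FPKM. These were the 3 largest differences (-4.45, -4.44 and -3.77), and Rfc2 the smallest (49.2 to 28.7 FPKM, -0.76). Not every gene was lowest then: Gins1 was at 3.10 FPKM at 8 h and 6.81 FPKM at 24 h, and Rfc3 at 8.79 and 13.7 FPKM. The thymocyte marker sum was 37.1 FPKM at 24 h against 916 FPKM at 0 h, the macrophage sum 361 against 91.3 FPKM, and this library also carried small-intestine transcripts; their part in the difference was not tested.
In spleen Rrm2 was at 45.7 FPKM at 0 h and 9.52 FPKM at 24 h, Lig1 at 16.985 and 3.20 FPKM and Cdc6 at 6.99 and 1.32 FPKM, while Orc6 (13.6 and 11.015 FPKM) and Gins3 (4.79 and 4.92 FPKM) were near their 0 h level. In large intestine the 5 genes were Tk1 (13.6 to 2.50 FPKM), Cdc45, Gins2, Rfc4 and Tipin, and in small intestine the 1 gene was Rfc4 (12.9 to 5.42 FPKM). The 6 genes of NIH3T3 included Tipin, Prim1 and the nucleotide supply enzymes Tk1, Tyms and Rrm2 (73.7 to 36.1 FPKM).

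**Figure D5:**
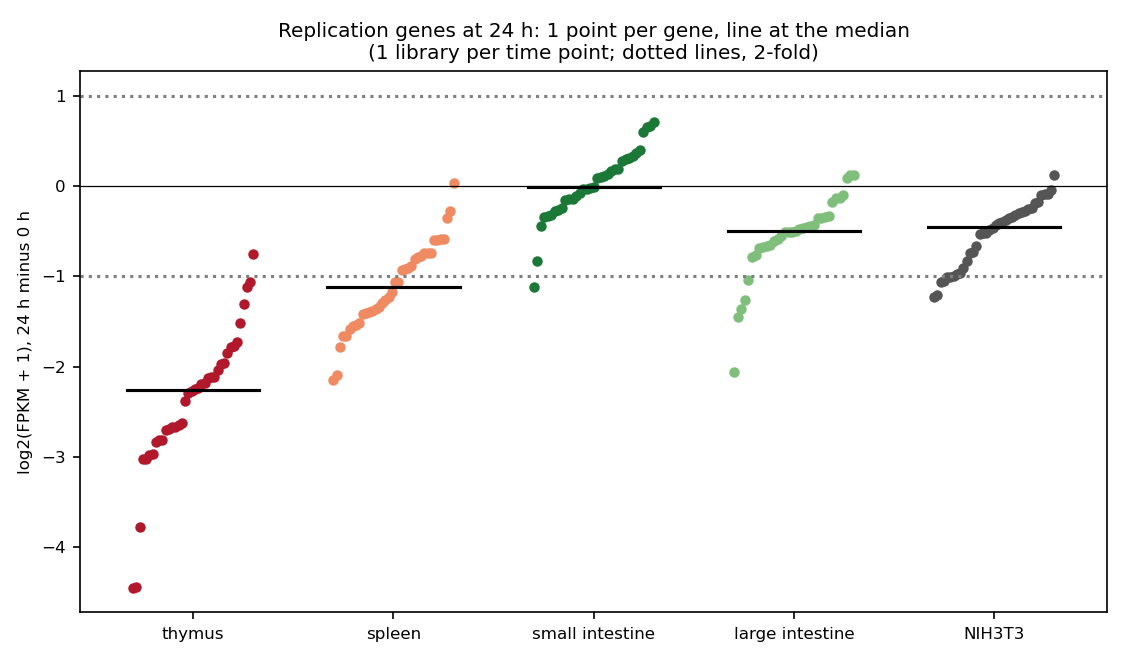
Difference of log2(FPKM + 1), 24 h minus 0 h, 1 point per gene tested in each system, ordered within a system, with a line at the median; dotted lines mark 2-fold. The medians are -2.26 in thymus, -1.12 in spleen, -0.01 in small intestine, -0.50 in large intestine and -0.45 in NIH3T3.

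The rest of the replication pathway was taken from a list of 48 other genes, which includes the MCM subunits, polymerase accessory subunits and nucleotide enzymes. In thymus 37 of its 48 genes fell and 1 rose from 1 to 5 h to 6 to 8 h, with a median of -1.07, and in spleen 11 of 46 fell, with a median of -0.26. Of all genes tested, 13.4% and 12.2% were called lower there. Against 0 h 16 of 48 fell in thymus (3.9% of all genes tested), and 9 of 46 fell and 1 rose in spleen (3.61% lower). In NIH3T3 10 of 48 fell and 1 rose from 1 to 5 h to 9 to 12 h (6.52% lower). Shares of all genes called higher were not counted. The 6 MCM2-7 genes had medians of -1.51 in thymus and -0.50 in spleen for 6 to 8 h against 1 to 5 h, beside -1.41 and -0.39 for the 38 genes described here. In the same thymus contrast E2f1, a transcription factor of this programme, fell by 1.74 ± 0.25 (adjusted p = 1.2e-05, limma) and Ccne2, a cyclin of the G1 to S transition, fell by 2.84 ± 0.38 (adjusted p = 5.73e-06). Ccne2 was also above 0 h at 1 h (16.2 and 53.1 FPKM). In that thymus contrast E2f3 (-0.46) and E2f7 (-0.90) were called lower too. E2f2 (-0.72), E2f4 (-0.03) and E2f8 (-0.50) were not called. For the same hours in spleen, neither E2f1 (-0.47) nor Ccne2 (-0.28) was called. Cdkn1a, the p53-induced inhibitor of cyclin-dependent kinases that also binds Pcna, rose against 0 h by 4.17 ± 0.36 in thymus, 5.44 ± 0.36 in spleen, 1.46 ± 0.36 in large intestine and 1.12 ± 0.12 in NIH3T3, with 0.96 ± 0.36 in small intestine not called. In thymus Cdkn1a was at 9.88 FPKM at 0 h, 48.3 FPKM at 1 h and 319.8 FPKM at 8 h. At 1 h 26 of the 38 genes were above their 0 h value there, against 49.8% of all genes tested. Each hour is 1 library, and a link between Cdkn1a and these genes was not tested.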

How the data were processed

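Tissue libraries and NIH3T3 libraries were made from polyA RNA with an unstranded kit, per the labels' protocols, so reads of overlapping genes on opposite strands cannot be told apart. Per the submitters' processing notes the authors used TopHat2 2.1.0, Cufflinks 2.1.1 and the mm10 build, and the deposited values are FPKM for 13611 genes in 54 libraries. FPKM carries no read totals, so the depth is unknown beyond the relative estimate given, and no counting interval can be set.

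Genes with a mean of at least 1 FPKM in a system were tested in R 4.3.3 with limma 3.58.1 on the log2(FPKM + 1) scale (trended empirical Bayes, Benjamini-Hochberg adjustment over all genes tested, threshold 0.05). The 40 tissue libraries shared 1 fit (20 residual degrees of freedom) and the 14 NIH3T3 libraries another (8). The single 0 h library was assumed to vary like libraries of 1 window. The 24 h and 1 h contrasts had no test and used folds of 2 and 1.5 on the same scale.

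In each comparison up to 5 called genes with the lowest and up to 5 with the highest differences are named, and Pcna, Rrm2, Tk1, Cdc6, Cdt1, Orc1 and Slbp in every system; others were named after their values were seen. The genes, lists and named genes were chosen with earlier results of these data known. The fitting code was tested on simulated data. Alternatives were a pseudocount of 0.1, no filter, median-of-ratios scaling, other window borders, a fit of 1 tissue, leaving out libraries, and the hour as a block. Promoter sequences are RefSeq's, from GRCm38.p6.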

Additional observations from a re-analysis of the deposited data

Results flagged for a closer look

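Responses that differed between organs in a test of the difference itself are given here. Sample groups of the tissues held 1 to 3 libraries, too few for a check of single outlying libraries; in the 9 to 12 h group of NIH3T3 (4 libraries) that check marked 0 of 38 genes.

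For 1 to 8 h against 0 h, spleen and thymus had a lower mean response than the intestines for 1 of 33 genes. The gene was Rrm2 (-1.34 on the log2 scale), and 0.852% of all genes tested were called lower. The Rrm2 call depended on single libraries. For 6 to 8 h against 1 to 5 h the spleen and thymus mean was lower for 32 of 33 genes. Of all genes tested, 12.8% were called lower there. Among the 32 were Orc6 at -2.08, Dtl at -1.64, Lig1 at -1.56, Prim1 at -1.50, Uhrf1 at -1.39, Tk1 at -1.14, Rrm2 at -1.14, Cdt1 at -1.07 and Pcna at -0.99. Orc6 and Lig1 lost the call with a pseudocount of 0.1 (adjusted p = 0.0538 and 0.2001, limma).

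The thymus response for 6 to 8 h against 1 to 5 h was lower than that of spleen for 22 of 38 genes. Among them were Gins1 at -2.10, Dtl at -1.67, Cdc45 at -1.46, Rfc4 at -1.37, Chaf1a at -1.35, Pcna at -1.21, Slbp at -1.16 and Tk1 at -1.05. Of all genes tested, 4.99% were called lower. This comparison was added after the data were seen, and 13 genes were called without thymus at 1 h.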

How the results depend on the processing

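No difference of a called gene changed its sign under the alternatives run; differences that were not called were not followed. With a pseudocount of 0.1 the called genes were 1 in large intestine, 5 in spleen and 13 in thymus for 1 to 8 h against 0 h (2, 15 and 24 with 1), 0 for spleen and thymus against the intestines (1), and 2 lower at 24 h in small intestine (1). With no filter the counts were 2 for that organ difference, and in NIH3T3 0 for 1 to 8 h against 0 h (2) and 1 for 6 to 8 h against 1 to 5 h (5). Median-of-ratios scaling gave 0 in NIH3T3 for 1 to 8 h against 0 h. Other window borders gave 1 in large intestine, 0 for the organ difference and 7 in NIH3T3, all for 1 to 8 h against 0 h. Fits of 1 tissue gave 0 in large intestine and 7 in spleen for 1 to 8 h against 0 h. Smaller changes in count are not listed here. Of the 24 thymus genes called in that contrast, 7 lost the call in a fit of thymus alone and 8 with other window borders. Without large intestine at 1 and 2 h and spleen at 6 h the counts were 4 in large intestine and 2 for the organ difference for 1 to 8 h against 0 h, and 5 in spleen for 6 to 8 h against 1 to 5 h (10). This alternative was set to leave out libraries with transcripts of another organ, but large intestine at 1 h had the lowest small-intestine marker sum of its tissue (292 FPKM). The causes were not tested.

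Leaving out 1 library at a time gave, for 1 to 8 h against 0 h, 0 to 0 in small intestine, 1 to 4 in large intestine, 10 to 20 in spleen, 12 to 33 in thymus, 0 to 6 for the organ difference and 0 to 4 in NIH3T3. For 6 to 8 h against 1 to 5 h it gave 0 to 0 in both intestines, 2 to 14 in spleen, 37 to 38 in thymus, 32 to 33 for the organ difference, 13 to 29 for thymus against spleen and 0 to 6 in NIH3T3, and for 9 to 12 h there 9 to 13.

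The labels do not say whether libraries of the same hour in different tissues come from the same animal. Over 48 pairs of such libraries the correlation of deviations from window means ranged from -0.127 to 0.324 (median 0.0408). It was highest between spleen and thymus, at 3 h (0.324) and 5 h (0.302). The values for 1 h and 2 h are equal by construction. Low correlations between organs cannot show that animals were not shared. With the hour as a replicate block the organ difference gave 1 gene for 1 to 8 h against 0 h, which was not Rrm2 (adjusted p = 0.0507, limma), and 33 for 6 to 8 h against 1 to 5 h, and thymus against spleen gave 23.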
